A study of Mus musculus with 16 samples.

Results

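The genes described here are 36 genes of the peroxisome: 17 peroxins, whose symbols begin with Pex and a digit and whose proteins build and maintain the organelle, and 19 listed genes of peroxisomal lipid metabolism, hydrogen peroxide removal and the peroxisomal membrane. The rule uses gene symbols, although the set was drawn up with earlier results of these data known. All 36 were listed both in the table of 14138 genes that covers CPT2H-KO and wild type hearts and in the table of 17831 genes that covers CPT2/USP30 double KO and CPT2 single KO hearts. RNA was sequenced from 16 mouse heart samples: 5 CPT2H-KO, 5 wild type, 3 CPT2/USP30 double KO and 3 CPT2 single KO. In CPT2H-KO mice, carnitine palmitoyltransferase 2 (CPT2), an enzyme of the mitochondrial inner membrane that long-chain fatty acids need in order to be oxidised there, was deleted in cardiomyocytes. Single KO hearts have the same genotype label as CPT2H-KO hearts, so both groups of the second table lack cardiomyocyte CPT2, and the double KO adds loss of USP30, a deubiquitinase. The series text gives the heart-specific USP30 knockout as Myh6-Cre with USP30 fl/fl, where Myh6 is a cardiomyocyte promoter. The labels name neither ages, sexes nor the driver of the CPT2 deletion, and a group without Cre or with Cre alone was not analysed here.

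Peroxisomes are single-membrane organelles that shorten very long-chain and branched fatty acids, carry out the first steps of ether lipid synthesis and break down hydrogen peroxide. Peroxins insert the membrane proteins of the organelle, import its enzymes from the cytosol and elongate and divide it. Peroxisomal beta-oxidation needs neither carnitine palmitoyltransferase nor the mitochondrial membrane, and many of its genes are targets of the nuclear receptor PPAR-alpha, which fatty acids activate. USP30 sits in the outer mitochondrial membrane and also on peroxisomes, where in cultured cells it opposes PEX2-dependent removal of the organelle by autophagy.

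Promoter sequences were available for 26 of the 36 genes, as the 250 bases before the transcription start in the RefSeq annotation of GRCm38.p6. The pairs shown are Pex11a and Pex11g, division genes that were called in opposite directions in CPT2H-KO hearts, and Cat and Scp2, which share an AGGTCA motif and were also called in opposite directions. Capitals mark 3 motifs on either strand, GGGCGG bound by SP1, the motif CCAAT bound by NF-Y, and AGGTCA, the half-site of nuclear receptors such as PPAR-alpha, and each sequence runs 5′ to 3′ along its gene.
Pex11a, chr7:79743132-79743381, minus strand: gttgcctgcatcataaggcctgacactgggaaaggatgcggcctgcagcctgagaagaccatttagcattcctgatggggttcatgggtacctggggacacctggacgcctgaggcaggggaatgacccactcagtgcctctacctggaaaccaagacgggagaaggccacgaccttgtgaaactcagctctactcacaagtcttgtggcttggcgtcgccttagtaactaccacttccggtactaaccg
Pex11g, chr8:3467649-3467898, minus strand: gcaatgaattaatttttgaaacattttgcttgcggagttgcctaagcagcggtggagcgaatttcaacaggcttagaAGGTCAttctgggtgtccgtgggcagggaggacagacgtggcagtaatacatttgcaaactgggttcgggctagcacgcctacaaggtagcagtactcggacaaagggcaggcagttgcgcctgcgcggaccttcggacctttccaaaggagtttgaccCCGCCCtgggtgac
Cat, chr2:103485154-103485403, minus strand: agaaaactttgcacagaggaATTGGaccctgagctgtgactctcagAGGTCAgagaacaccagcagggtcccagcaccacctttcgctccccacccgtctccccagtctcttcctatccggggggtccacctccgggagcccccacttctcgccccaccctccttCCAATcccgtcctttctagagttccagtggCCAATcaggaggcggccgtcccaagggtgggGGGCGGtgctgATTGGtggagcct
Scp2, chr4:108118548-108118797, minus strand: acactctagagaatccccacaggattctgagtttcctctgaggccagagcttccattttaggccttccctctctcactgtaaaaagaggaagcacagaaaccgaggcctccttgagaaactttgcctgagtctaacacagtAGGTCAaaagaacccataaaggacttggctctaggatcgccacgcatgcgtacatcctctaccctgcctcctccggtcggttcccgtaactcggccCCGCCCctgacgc
The Pex11a window holds none of the 3 motifs, and its start lies 32 bases from that of Wdr93 on the other strand. AGGTCA was found in 1 of 11 biogenesis promoters (Pex11g) and in 2 of 15 enzyme promoters (Cat and Scp2), beside 14.02% of 32851 promoter windows of the same length. GGGCGG was found in 7 of 11 biogenesis and 12 of 15 enzyme promoters, beside 32.74% of all windows, and CCAAT in 3 of 11 and 8 of 15, beside 33.85%. TATAAA was found in 3 of 11 biogenesis promoters (Pex14, Pex16 and Pex26) and in 0 of 15 enzyme promoters, beside 12.37% of all windows. Both strands were searched. The full direct repeat AGGTCANAGGTCA, in 0.03% of all windows, and TNAAGGTCA, the estrogen-related receptor motif, in 1.14%, were found in no window of these genes. The Scp2 window lies inside the gene as GENCODE draws it, because RefSeq starts the transcript used there further downstream.

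Totals ranged from 54674422 to 131049342 counts in CPT2H-KO libraries, against 55905339 to 132762776 in wild type libraries, and from 11779115 to 12734379 in double KO libraries, against 11067969 to 13532716 in single KO libraries. Cpt2 was at 40.4 ± 5.72 CPM (read counts scaled to a common library size) in CPT2H-KO hearts and 77.9 ± 15.2 CPM in wild type hearts (SD, n = 5 each), a log2 fold change of -0.95 (edgeR adjusted p = 9.71e-04). Usp30 was at 9.39 ± 1.68 CPM in double KO hearts and 21.03 ± 2.23 CPM in single KO hearts (SD, n = 3 each). Its log2 fold change came to -1.16 with an edgeR adjusted p of 0.147, and DESeq2 gave an adjusted p of 2.39e-04. Without double KO replicate 1 the edgeR adjusted p was 0.0218, and without any 1 of the other 5 libraries it was 0.223 to 0.502. The defining cardiomyocyte genes were abundant in every library, with 6 markers summing to 15011 to 19131 CPM in CPT2H-KO and 17370 to 19761 CPM in wild type hearts. Libraries differed in atrial transcripts: Myl7, an atrial myosin light chain gene, was at 0.285 to 0.610 CPM in 3 CPT2H-KO hearts, and higher in replicates 1 (14.1 CPM) and 5 (144 CPM), against 25.4 to 194 CPM in wild type hearts. It was at 1.49, 102 and 425 CPM in double KO hearts and at 0.458 CPM or less in single KO hearts. Y-linked transcripts were at background in CPT2H-KO replicates 1 and 3, wild type replicate 1, all double KO hearts and single KO replicate 3. Between double and single KO hearts, USP30 loss and Y-linked status therefore cannot be fully told apart. No label ties hearts to litters, so p-values measure only the spread between these samples.

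Loss of CPT2 came with a mixed pattern across the peroxisomal genes. The division gene Pex11a was 1.72-fold higher in CPT2H-KO hearts, the fatty acyl transporter gene Abcd2 was at 0.314 of its wild type level, and the membrane channel gene Pxmp2 was at 0.527 of it. The classical peroxisomal beta-oxidation genes Ehhadh, Hsd17b4 and Acaa1a did not pass the test. All 36 genes were tested, and edgeR called 4 higher and 10 lower at an adjusted p under 0.05, where 16.7% of the 14123 genes tested were called higher and 17.0% lower. That is 38.9% of the members in either direction, beside 33.7% of all genes, so the share called is near the background. The groups did not overlap for 13 members, 3 higher and 10 lower, beside 24.7% of all genes. Scaling by library totals alone put the median log2 fold change of all genes at -0.27 instead of -0.01, and then 1 member was called higher and 17 lower, beside 5.86% of all genes higher and 34.2% lower.

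**Figure D1:**
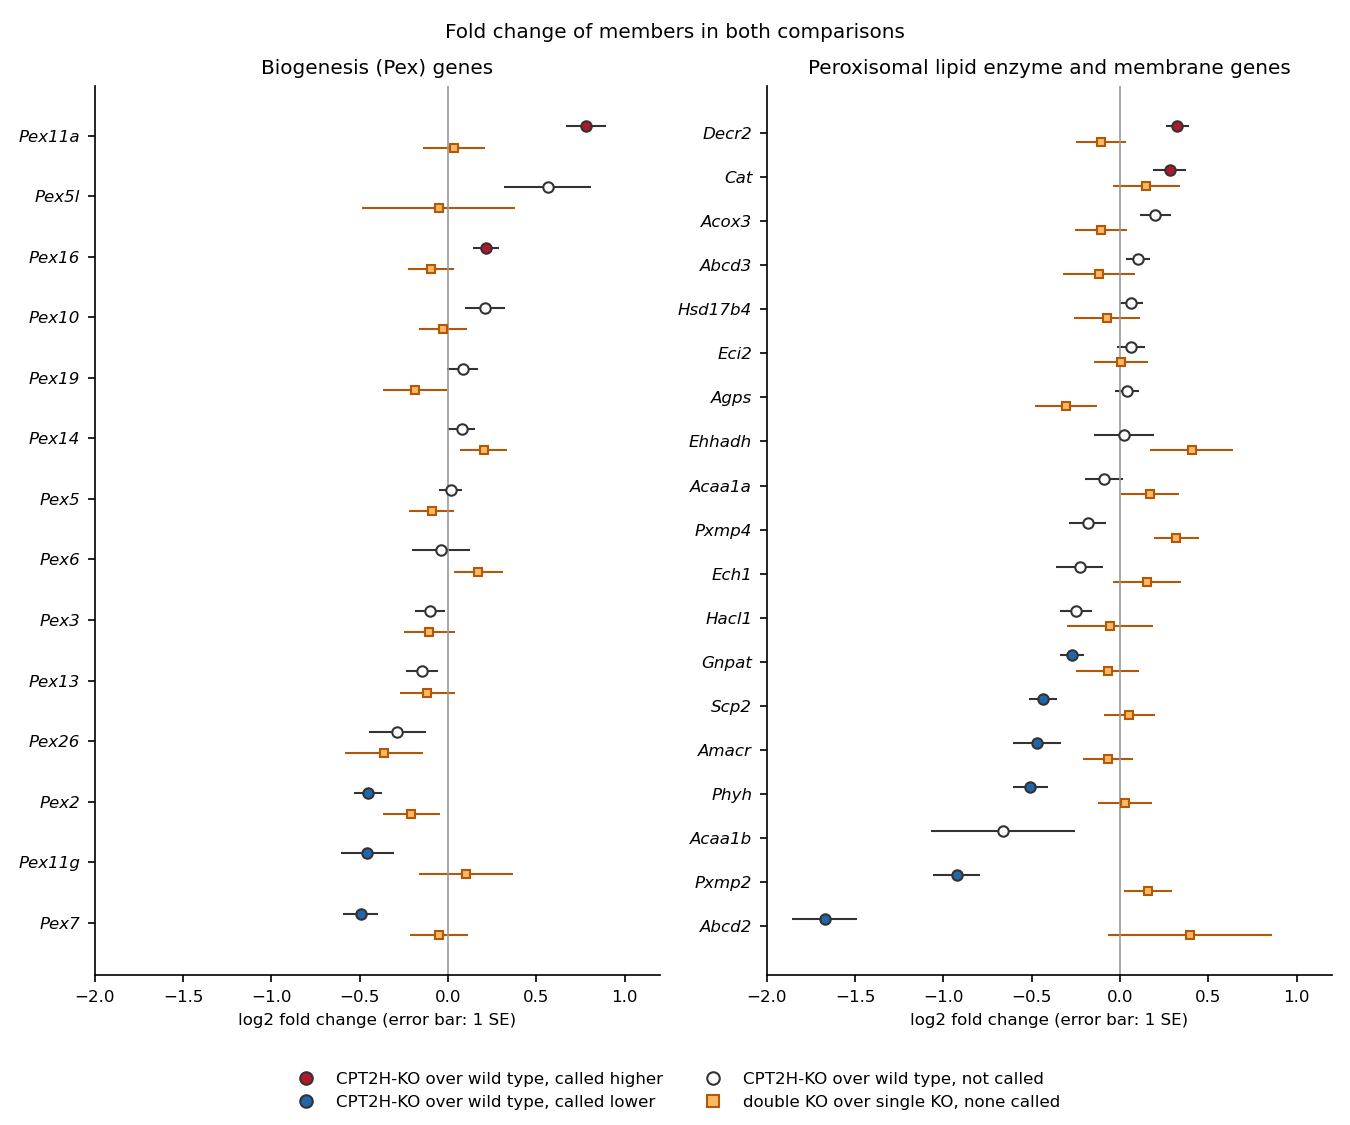
Log2 fold change of 33 of the 36 genes with 1 SE, as CPT2H-KO over wild type (circles, n = 5 each) and CPT2/USP30 double KO over CPT2 single KO (squares, n = 3 each), with biogenesis genes left and the other genes right, sorted by the first comparison. Abcd2 lies farthest to the left at -1.67 and Pex11a farthest to the right at 0.78 among the circles, no square is called, and Acaa1b has no square because its counts in the second table were too low to test.

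Among the import receptors, Pex7 was lower in CPT2H-KO hearts and Pex5 was not called. Pex7, the receptor for proteins with the N-terminal targeting signal such as phytanoyl-CoA hydroxylase, stood at 6.80, 9.40, 9.28, 9.50 and 9.49 CPM in CPT2H-KO hearts, against 12.4, 13.0, 13.7, 12.4 and 11.1 CPM in wild type hearts. Every CPT2H-KO heart was below every wild type heart, and CPT2H-KO replicate 1 was the lowest of all. The log2 fold change of Pex7 was -0.49 (SE 0.10, edgeR adjusted p = 0.00376). Pex5, the receptor for the C-terminal signal that most matrix enzymes carry, averaged 11.8 ± 0.76 CPM in CPT2H-KO and 11.7 ± 0.54 CPM in wild type hearts, with a 95% interval of the log2 fold change from -0.13 to 0.16. Pex5l, a paralog known mainly for binding ion channels in neurons, was at the lowest level per length of all 36 genes and was not called (0.56, edgeR adjusted p = 0.10), although without CPT2H-KO replicate 4 its adjusted p was 0.0272.

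The docking genes Pex13 and Pex14, whose proteins receive the loaded receptors at the membrane, had log2 fold changes of -0.15 and 0.08 and were not called. Pex2, a gene of the RING ubiquitin ligase, which marks receptors for recycling or removal, was lower. It stood at 8.93, 11.6, 10.4, 11.3 and 11.7 CPM in CPT2H-KO hearts, against 14.95, 14.93, 15.1, 14.6 and 14.3 CPM in wild type hearts. The wild type hearts lay close together and all above the highest CPT2H-KO heart, and the log2 fold change came to -0.45 (SE 0.08, edgeR adjusted p = 0.00159). Pex10, of the same ligase, had a log2 fold change of 0.21 with an edgeR adjusted p of 0.171, and it was called without CPT2H-KO replicate 1 (adjusted p = 0.0302). Pex6 and Pex26, which encode an ATPase that pulls receptors out of the membrane and its anchor, were not called, with log2 fold changes of -0.04 and -0.29. The spread of Pex6 was wide in CPT2H-KO hearts, from 8.28 to 17.6 CPM, against 11.9 to 14.6 CPM in wild type hearts.

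Of the genes that insert membrane proteins, Pex16, whose protein recruits PEX3 to the membrane, was called higher. Pex16 stood at 6.24, 6.42, 6.14, 6.28 and 7.23 CPM in CPT2H-KO hearts, against 5.97, 5.50, 5.79, 5.21 and 5.37 CPM in wild type hearts. The groups did not overlap, though the gap between them was narrow, and the log2 fold change came to 0.22 (SE 0.07, edgeR adjusted p = 0.0397), turning to -0.04 when scaled by library totals alone. The call was lost, with adjusted p from 0.0587 to 0.0948, when wild type replicate 2, 3, 4 or 5 or CPT2H-KO replicate 2, 4 or 5 was left out. Pex3, the membrane docking factor, and Pex19, the chaperone of membrane proteins, were not called, with log2 fold changes of -0.10 and 0.08.

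The division genes Pex11a and Pex11g, whose proteins bend and elongate the membrane before fission, passed the test in opposite directions. Pex11a (chromosome 7, 79735957 to 79743131, minus strand, GRCm38), the member known as inducible by PPAR-alpha ligands in rodent liver, stood at 6.52, 5.94, 8.44, 7.92 and 8.47 CPM in CPT2H-KO hearts, against 4.49, 4.83, 4.47, 3.86 and 4.08 CPM in wild type hearts. Each CPT2H-KO heart was above each wild type heart, with a log2 fold change of 0.78 (SE 0.11, edgeR adjusted p = 6.21e-04). Pex11g, its paralog, stood at 0.830, 1.13, 1.34, 1.13 and 1.29 CPM in CPT2H-KO hearts, against 1.61, 1.76, 1.67, 1.41 and 1.421 CPM in wild type hearts. All CPT2H-KO hearts were below all wild type hearts, with a log2 fold change of -0.46 (SE 0.15, edgeR adjusted p = 0.0374).

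Pex11a was called in all 19 alternative settings, and Pex11g in 9 of 19. Pex11g lost its call without wild type replicate 1, 2 or 3 or CPT2H-KO replicate 1, 2 or 4 (adjusted p 0.051 to 0.0919). The call was also lost with a replicate block, an atrial covariate or a Y-linked term, and without both CPT2H-KO hearts with atrial transcripts (edgeR adjusted p 0.057 to 0.132). Pex11g was lower in each of these fits. It shares 41.1% of its exon bases with Gm44775 on the other strand, and no source used here states how reads in shared bases were assigned.

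Seen together, the biogenesis genes gave 2 higher, 4 lower and 11 uncalled members, beside 16.7% of all genes higher and 17.0% lower, with a median log2 fold change of -0.04 beside -0.01 over all genes tested. Called lower were 2 members without wild type replicate 1, 2 or 3, and called higher was 1 member without wild type replicate 2, 3, 4 or 5 or CPT2H-KO replicate 2 or 5. Leaving out 1 library at a time, 26.1% to 33.9% of all genes were called in either direction. Scaled by library totals alone, 1 biogenesis gene was called higher and 8 lower, beside 5.86% and 34.2% of all genes. Summed over the 17 genes, CPM ranged from 155 to 195 in CPT2H-KO and from 169 to 190 in wild type hearts. Pex19, which was not called, alone had 55.8 to 77.0 CPM in CPT2H-KO and 56.9 to 66.5 CPM in wild type hearts.

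Fatty acyl transport carried the largest fold change of the 36 genes. Abcd2 (chromosome 15, 91145871 to 91191799, minus strand, GRCm38) encodes the ABC transporter ALDRP, which brings very long-chain and polyunsaturated acyl-CoAs into peroxisomes. It stood at 1.15, 1.44, 1.36, 2.05 and 2.13 CPM in CPT2H-KO hearts, against 6.02, 6.02, 4.49, 4.27 and 5.45 CPM in wild type hearts. The highest CPT2H-KO heart had less than any wild type heart, with a log2 fold change of -1.67 (SE 0.18, edgeR adjusted p = 1.18e-04), the one called change of at least 1 among these genes. Its relative Abcd3, which encodes the abundant transporter PMP70, had a log2 fold change of 0.10 and was not called, with a 95% interval from -0.05 to 0.25. The ratio of Abcd2 to Abcd3 within a library was 0.0184 to 0.0340 in CPT2H-KO hearts, against 0.0784 to 0.0961 in wild type hearts. Abcd2 is also a gene of fat cells, and the adipocyte gene Adipoq had no count in CPT2H-KO replicates 1 to 4 and 1.73 CPM in replicate 5, against 0.347 to 2.36 CPM in wild type hearts. Of 5 adipocyte markers tested 1, Cidea, was called higher. The whole list summed to 11.8 to 23.3 CPM in CPT2H-KO and 9.96 to 23.0 CPM in wild type hearts. That sum hides lower values of Plin1 and Cidec, which are on the list beside Adipoq. In CPT2H-KO replicates 1 to 4 Plin1 was at 0 to 0.054 CPM and Cidec had no count. Wild type hearts had 0.165 to 1.46 CPM of Plin1 and 0.33 to 2.09 CPM of Cidec, and CPT2H-KO replicate 5 lay within both ranges. Abcd2 was at 2.13 CPM in CPT2H-KO replicate 5, the one heart of its group with Adipoq counts, and at 2.05 CPM in replicate 4, which had none. In wild type replicates 1 to 5, Adipoq was at 0.479, 2.36, 2.02, 0.861 and 0.347 CPM. Abcd2 in the same hearts was at 6.02, 6.02, 4.49, 4.27 and 5.45 CPM. The part of fat cells in the Abcd2 difference was not tested.

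Pxmp2 (chromosome 5, 110274282 to 110286186, minus strand, GRCm38), whose protein forms a channel for small solutes in the peroxisomal membrane, was the second largest decrease. It stood at 8.67, 9.76, 12.9, 12.3 and 12.9 CPM in CPT2H-KO hearts, against 20.9, 23.7, 25.3, 18.9 and 18.6 CPM in wild type hearts. The groups were far apart, with a log2 fold change of -0.92 (SE 0.13, edgeR adjusted p = 5.51e-04). It shares 10.75% of its exon bases with the antisense gene Gm15788. Pxmp4, another peroxisomal membrane protein gene, was not called (-0.18, edgeR adjusted p = 0.191).

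Of 6 beta-oxidation genes, Scp2 was lower and the others were not called. Scp2, which from 2 promoters encodes a thiolase for branched chains and the sterol carrier protein 2, stood at 53.6, 59.0, 68.2, 67.7 and 67.1 CPM in CPT2H-KO hearts, against 86.0, 92.0, 87.5, 80.0 and 81.4 CPM in wild type hearts. No CPT2H-KO heart reached the wild type range, and the log2 fold change came to -0.44 (SE 0.08, edgeR adjusted p = 0.00223). The counts do not separate its 2 products. The bifunctional enzyme genes Ehhadh and Hsd17b4 averaged 5.83 ± 1.54 and 47.4 ± 2.88 CPM in CPT2H-KO hearts, against 5.73 ± 0.65 and 45.3 ± 2.41 CPM in wild type hearts. Their log2 fold changes had 95% intervals from -0.35 to 0.39 for Ehhadh and from -0.08 to 0.20 for Hsd17b4. The thiolase gene Acaa1a had a log2 fold change of -0.09 (95% interval from -0.33 to 0.15), and its near copy Acaa1b one of -0.66 with an interval from -1.55 to 0.23 at levels under 1 CPM. Their transcripts are 96.6% identical over 1428 bases, so the split of reads between both is uncertain. Acox3, a branched-chain acyl-CoA oxidase gene, had a log2 fold change of 0.20 with an adjusted p of 0.0976, and of 0.25 with an adjusted p of 0.0347 without CPT2H-KO replicate 5.

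Among the auxiliary enzymes that prepare unsaturated acyl-CoAs for oxidation, Decr2 was higher. Decr2, the peroxisomal 2,4-dienoyl-CoA reductase gene, stood at 7.57, 8.31, 8.44, 8.80 and 8.44 CPM in CPT2H-KO hearts, against 6.34, 6.66, 6.84, 6.96 and 6.38 CPM in wild type hearts. The groups did not overlap, and the log2 fold change came to 0.32 (SE 0.07, edgeR adjusted p = 0.00347). Scaled by library totals alone it was 0.06, with an adjusted p of 0.694. Ech1 and Eci2, whose isomerases are found in both peroxisomes and mitochondria, had log2 fold changes of -0.23 and 0.06 and were not called.

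Of Phyh, Amacr and Hacl1, genes that process methyl-branched fatty acids before beta-oxidation, Phyh and Amacr were lower. Phyh, which encodes phytanoyl-CoA hydroxylase, the first step of alpha-oxidation of methyl-branched phytanic acid, stood at 123, 135, 149, 152 and 157 CPM in CPT2H-KO hearts, against 189, 228, 235, 191 and 178 CPM in wild type hearts. All CPT2H-KO hearts were below all wild type hearts, with a log2 fold change of -0.51 (SE 0.10, edgeR adjusted p = 0.0029). Amacr, the racemase gene that makes branched acyl-CoAs fit for beta-oxidation, stood at 5.18, 8.18, 9.01, 8.60 and 7.43 CPM in CPT2H-KO hearts, against 10.3, 10.9, 11.8, 11.1 and 9.07 CPM in wild type hearts. CPT2H-KO replicate 3 came close to the lowest wild type heart without reaching it. Its log2 fold change came to -0.47 (SE 0.14, edgeR adjusted p = 0.0209), and without wild type replicate 3 the adjusted p was 0.0536. Hacl1, the lyase gene of alpha-oxidation, had a log2 fold change of -0.25 with an adjusted p of 0.0521, and was called without wild type replicate 4 or CPT2H-KO replicate 5 (adjusted p 0.0389 to 0.0396).

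In ether lipid synthesis, the acyltransferase gene Gnpat was lower and the next enzyme gene Agps was not called. Gnpat stood at 78.0, 82.0, 90.9, 88.7 and 89.7 CPM in CPT2H-KO hearts, against 97.2, 109, 114, 97.1 and 102 CPM in wild type hearts. The highest CPT2H-KO heart was below the lowest wild type heart, with a log2 fold change of -0.27 (SE 0.07, edgeR adjusted p = 0.0124). Agps had a 95% interval from -0.11 to 0.19, and the ratio of Agps to Gnpat within a library was 0.259 to 0.328 in CPT2H-KO hearts, against 0.210 to 0.257 in wild type hearts. Cat, the catalase gene whose enzyme removes hydrogen peroxide, stood at 119.5, 123, 116, 117 and 138 CPM in CPT2H-KO hearts, against 103, 120.2, 103, 85.2 and 94.0 CPM in wild type hearts. Its groups overlapped, since wild type replicate 2 was above 3 of the 5 CPT2H-KO hearts. The log2 fold change of Cat was 0.28 (SE 0.09, edgeR adjusted p = 0.0358), and the adjusted p was 0.0631 to 0.0805 without wild type replicate 1, 3, 4 or 5 or CPT2H-KO replicate 2 or 5. Cat was called in 9 of 19 alternatives, and library totals alone put it at 0.027 (edgeR adjusted p = 0.859).

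**Figure D2:**
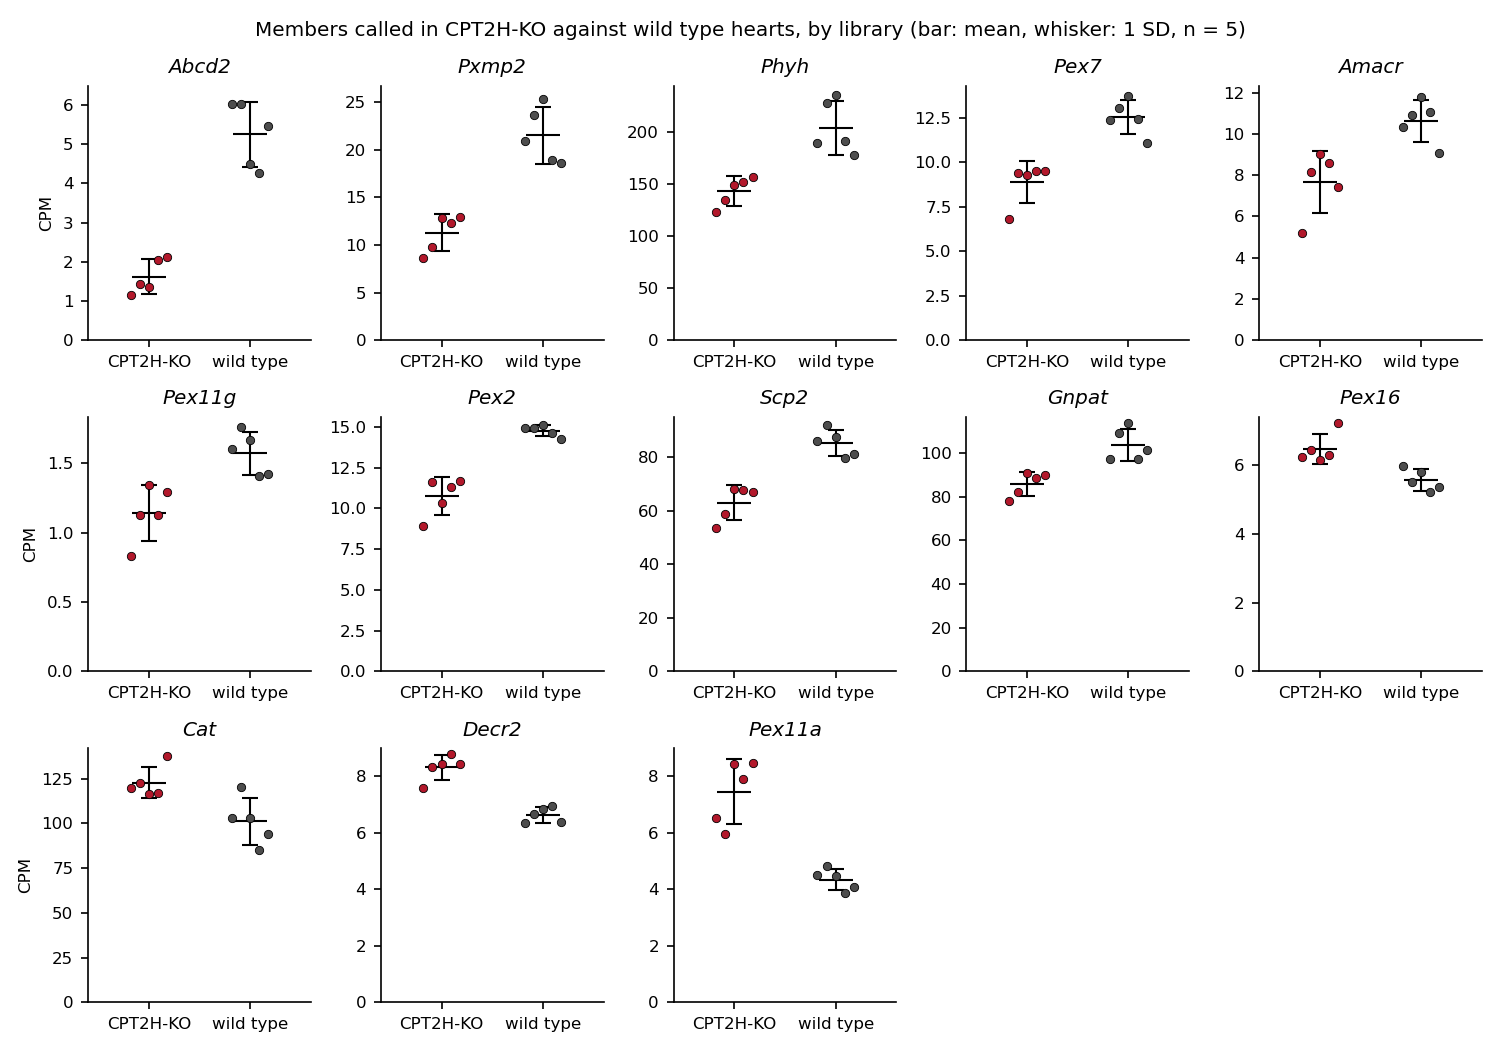
CPM in every library for 13 of the 14 genes called between CPT2H-KO (left, red) and wild type hearts (right, grey), with the mean and 1 SD (n = 5 each), ordered from the largest decrease, and every axis starting at 0. The groups overlap for Cat alone among these panels, and in each panel of a gene called lower the leftmost red point, CPT2H-KO replicate 1, is the lowest.

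**Figure D3:**
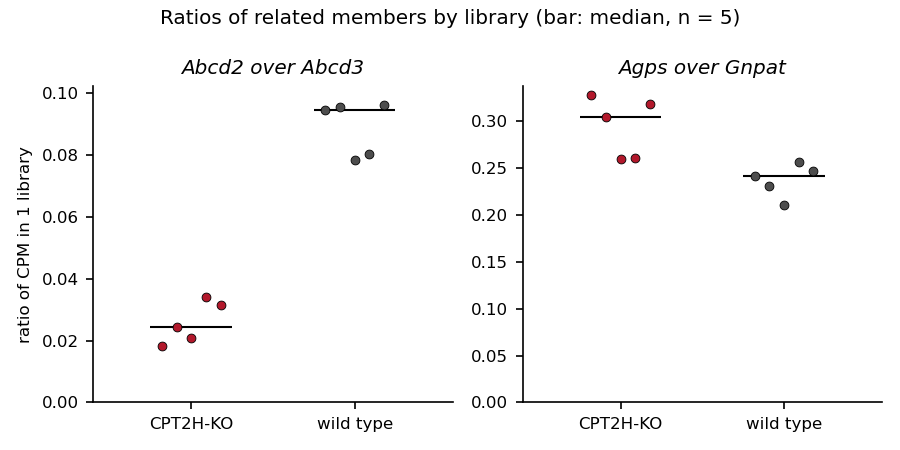
Ratio of CPM between related genes within each CPT2H-KO (left) and wild type (right) library, with the median as a bar (n = 5 each). Abcd2 over Abcd3 is 0.0184 to 0.0340 against 0.0784 to 0.0961, and Agps over Gnpat is 0.259 to 0.328 against 0.210 to 0.257.

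Seen as a group, the 19 enzyme, transporter and membrane genes gave 2 higher, 6 lower and 11 uncalled members, beside 16.7% of all genes higher and 17.0% lower, with a median log2 fold change of -0.18. The biogenesis median was -0.04 and that of all genes -0.01, and no test was run between these lists. Called higher was 1 enzyme gene without wild type replicate 1, 3, 4 or 5 or CPT2H-KO replicate 2, beside 13% to 16.8% of all genes. Scaled by library totals alone, 0 enzyme genes were called higher and 9 lower, beside 5.86% of all genes higher and 34.2% lower. Summed CPM over the 19 genes ranged from 937 to 1165 in CPT2H-KO and from 1049 to 1333 in wild type hearts. Ech1, which was not called, alone had 293 to 408 CPM in CPT2H-KO and 318 to 497 CPM in wild type hearts. Other cell markers moved with these groups: of 6 cardiomyocyte markers 1 was called higher and 3 lower, and of 5 fibroblast markers 2 were called higher, with summed levels of 853 to 1416 CPM in CPT2H-KO and 600 to 917 CPM in wild type hearts. No endothelial marker of 4 was called higher and 1 was called lower (243 to 332 CPM in CPT2H-KO and 236 to 315 CPM in wild type hearts), and none of 5 macrophage markers was called (75.3 to 110.3 CPM in CPT2H-KO and 88.9 to 115 CPM in wild type hearts). CPT2H-KO replicate 1, the heart with the lowest Cpt2, had the lowest CPM of its group for all 10 genes called lower. It was also lowest for 24 of all 36 genes. Of the 10 genes called lower, 9 were still called without this heart. The part of these features in the peroxisomal results was not tested, and in whole heart RNA fewer cells of a type and less RNA per cell cannot be told apart. Without the 2 CPT2H-KO hearts that carried atrial transcripts, replicates 1 and 5, 2 biogenesis genes were called higher and 3 lower, and 1 enzyme gene higher and 6 lower. Of all genes, 16.2% were then called higher and 17.8% lower. The CPT2H-KO hearts left had Myl7 at 0.285 to 0.610 CPM, against 25.4 to 194 CPM in wild type hearts. Atrial content and genotype cannot be told apart in that fit.

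Levels between genes were compared as CPM per kilobase of exon. In wild type hearts Ech1 was highest at 178 ± 31.8, followed by Phyh at 108 ± 13.6, Cat at 38.7 ± 4.98, Gnpat at 28.9 ± 2.05, Scp2 at 24.5 ± 1.40 and Pxmp2 at 17.9 ± 2.47 CPM per kilobase (SD, n = 5). The ranges of these 6 genes did not overlap each other, while Pxmp2 overlapped the next gene, Pex19, the highest peroxin at 16.1 ± 1.08 CPM per kilobase. Of the 10 highest levels, 9 belonged to enzyme, transporter or membrane genes and 1 to a peroxin. The median level was 1.37 CPM per kilobase for biogenesis genes and 4.61 for the other 19 in wild type hearts. In CPT2H-KO hearts Cat was at 47.0 ± 3.37, Scp2 at 18.1 ± 1.88 and Pxmp2 at 9.42 ± 1.63 CPM per kilobase, so that Pxmp2 came below Pex19 at 17.0 ± 2.02.

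**Figure D4:**
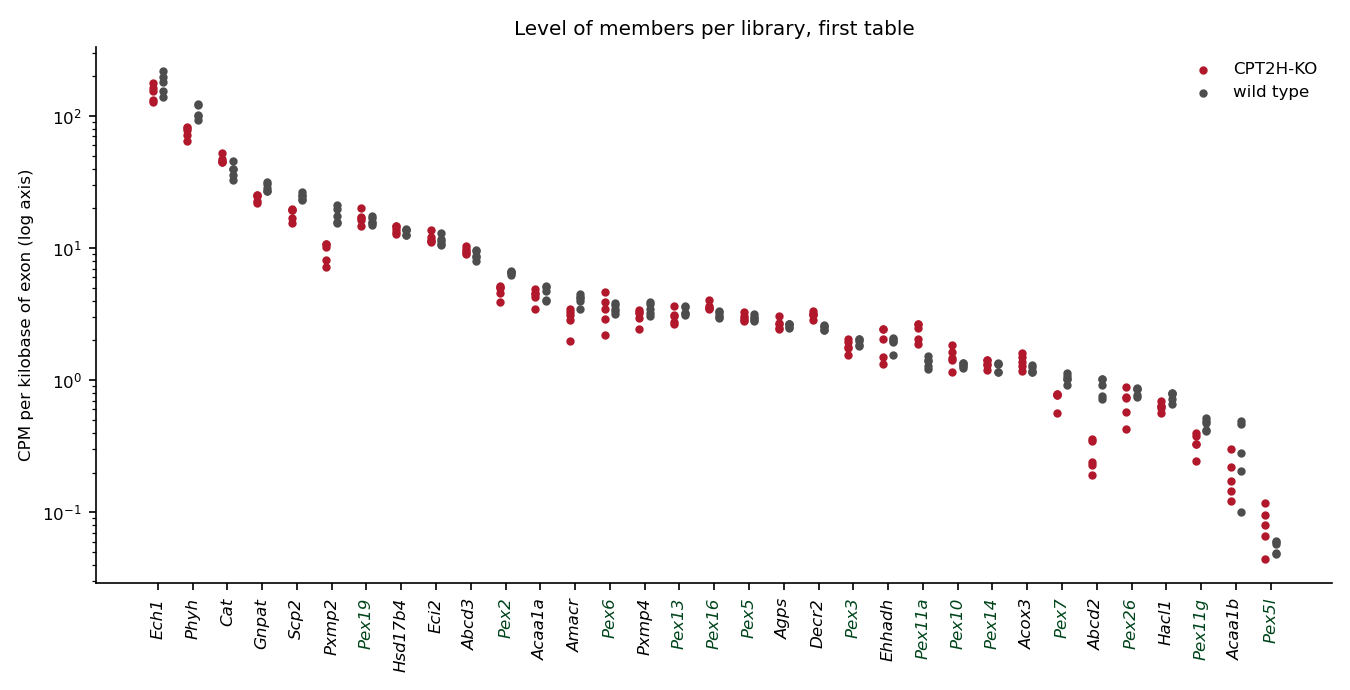
CPM per kilobase of exon of 33 of the 36 genes in each CPT2H-KO (left of each pair, red) and wild type (right of each pair, grey) library, on a log axis, ordered by the wild type mean, with biogenesis genes named in green. Levels run from Ech1, at 178 in wild type hearts, to Pex5l, at 0.055, and the clearest gap between red and grey points is that of Abcd2.

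Of 49 further genes listed as peroxisomal and set beside the members, 38 were tested. Of these, 6 were called higher and 11 lower, beside 16.7% of all genes higher and 17.0% lower. Their median log2 fold change was -0.05. Where the proteins of the listed genes lie in heart cells was not tested, and the list may hold genes of other organelles. Increases with small p were those of the acyl-CoA thioesterase gene Acot3 (1.97, edgeR adjusted p = 2.44e-04), the matrix protease gene Lonp2 (0.42, adjusted p = 5.77e-04) and the malonyl-CoA decarboxylase gene Mlycd (0.43, adjusted p = 0.0054). Acot3 has close copies in its gene cluster, so the split of reads among them is uncertain. The decreases with the smallest p were Mpv17 (-1.23, adjusted p = 4.77e-05), of the same protein family as Pxmp2, the glutathione transferase gene Gstk1 (-1.77, adjusted p = 0.00113), Isoc1 (-0.71, adjusted p = 0.00177) and the phosphomevalonate kinase gene Pmvk (-0.52, adjusted p = 0.00225). Ephx2 and Acot4 were also called higher, and Fndc5, Mff, Nudt7, Nbr1, Prdx5, Fis1 and Ddo lower. Among 12 regulators, the coactivator gene Ppargc1b (0.71, adjusted p = 0.0198) and the receptor gene Ppard (0.50, adjusted p = 0.0222) were higher, and the partner receptor genes Rxra (-0.35, adjusted p = 0.00718) and Rxrg (-0.64, adjusted p = 0.00893) lower. Ppara itself was not called (-0.35, edgeR adjusted p = 0.0596).

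Double KO hearts were set against single KO hearts to see the added effect of USP30 loss on a CPT2-deficient background. No peroxisomal gene passed the test: edgeR called 0 of the 35 members tested at an adjusted p under 0.05, and 0% of all 12997 genes. At an unadjusted p under 0.05, 1 member stood out where 7.25% of all genes did, and the groups did not overlap for 3 members, beside 11.8% of all genes. limma-voom also called 0 genes, and DESeq2 called 115 genes, of which 0 were members. Acaa1b was the member left out for low counts, at 0.415, 0.248 and 3.73 CPM in double KO hearts, against 0.488, 0.374 and 1.01 CPM in single KO hearts. The median log2 fold change came to -0.05 for biogenesis genes and 0.02 for the others, beside 0.003 over all genes tested. The 95% interval of the log2 fold change lay within 1 of 0 for 33 of the 35 genes and within 0.5 of 0 for 18, and that of Abcd2 was the widest, from -0.65 to 1.43.

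Pxmp4, the membrane protein gene with the unadjusted p of 0.0313, stood at 46.5, 41.6 and 41.2 CPM in double KO hearts, against 35.5, 33.4 and 34.7 CPM in single KO hearts. Every double KO heart was above every single KO heart, with a log2 fold change of 0.32 (SE 0.13) and an edgeR adjusted p of 0.608. Pex14, the docking gene, stood at 42.6, 48.1 and 44.5 CPM in double KO hearts, against 41.3, 41.1 and 35.0 CPM in single KO hearts, also without overlap (0.20, edgeR adjusted p = 0.824). Pex16 stood at 25.2, 25.6 and 22.9 CPM in double KO hearts, against 26.8, 26.1 and 25.8 CPM in single KO hearts, again without overlap (-0.10, edgeR adjusted p = 0.929). None of these 3 genes was called in any of 15 alternatives, 1 of which keeps a single double KO heart.

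Summed endothelial markers were at 676 to 787 CPM in double KO hearts, against 883 to 989 CPM in single KO hearts. Summed red blood cell markers were at 3175 to 5337 CPM, against 5707 to 7010 CPM. Summed adipocyte markers were at 59.3 to 149 CPM in double KO hearts, against 50.5 to 54.3 CPM in single KO hearts. The part of these markers in the values above was not tested.

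Of the genes called in CPT2H-KO hearts, all but Pex16 had overlapping groups here, among them Pex2, Pex11a and Abcd2. Pex2, whose ligase USP30 opposes in cultured cells, stood at 17.5, 21.6 and 21.1 CPM in double KO hearts, against 22.1, 20.8 and 26.7 CPM in single KO hearts, which overlapped (95% interval of the log2 fold change from -0.57 to 0.15). Pex11a stood at 27.5, 43.0 and 36.3 CPM in double KO hearts, against 38.3, 32.4 and 33.4 CPM in single KO hearts, with an interval from -0.36 to 0.43. Among genes with overlapping groups, the largest log2 fold changes were those of Ehhadh (0.41), Abcd2 (0.39) and Pex26 (-0.36), with edgeR adjusted p of 0.794, 0.916 and 0.797. Abcd2 stood at 2.99, 5.38 and 6.96 CPM in double KO hearts, against 1.79, 3.37 and 6.60 CPM in single KO hearts, while Adipoq was at 0, 0.497 and 14.2 CPM in double KO hearts and had no count in single KO hearts. With Myl7, Myl4 and Sln levels as a covariate, the log2 fold change came to -0.23 for Ehhadh and -0.59 for Abcd2. Leaving out double KO replicates 2 and 3, which carried the atrial transcripts, leaves 1 double KO heart, assumed to vary like the others, against 3 single KO hearts. There the values were -0.16 for Ehhadh and -0.39 for Abcd2, with medians of -0.18 for biogenesis genes and -0.18 for the others.

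**Figure D5:**
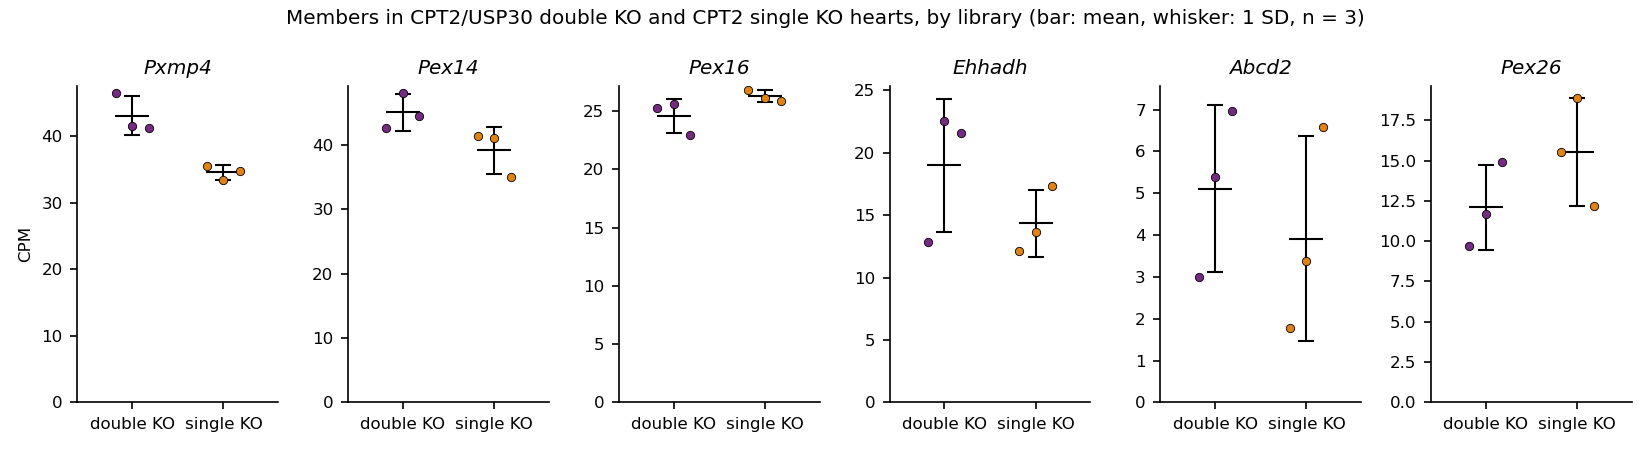
CPM in CPT2/USP30 double KO (left, purple) and CPT2 single KO (right, orange) hearts, with the mean and 1 SD (n = 3 each), for the 3 genes whose groups did not overlap (Pxmp4, Pex14, Pex16) and the 3 with the largest fold changes among the others (Ehhadh, Abcd2, Pex26). The Pxmp4 points lie at 41.2 to 46.5 in double KO hearts, against 33.4 to 35.5 in single KO hearts, and those of Abcd2 overlap widely.

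Of the 49 further listed genes, 39 were tested here and of 12 regulators 12, and edgeR called 0 of either list. Both tables were counted over different gene sets and depths, so levels were not compared between them.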

How the data were processed

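Total RNA of 16 mouse heart samples was sequenced. Column purification, DNase, ribosomal RNA depletion and strand-marked libraries are named per the labels' protocols, and bcl2fastq, HISAT2, the build mm10 and DESeq2 1.42.0 per the submitters' processing notes. No source used here names the counter, the annotation or the strand setting. The 2 deposited tables hold the authors' raw counts per gene, with totals of 54674422 to 132762776 and 11067969 to 13532716 per library. Groups were read from the sample titles.

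Each table was fitted alone with edgeR 4.0.16 in R 4.3.3: filterByExpr, TMM scaling, quasi-likelihood F test, and Benjamini-Hochberg adjustment over all genes tested with a threshold of 0.05. SE is the log2 fold change over the square root of F. CPM uses TMM-scaled library sizes, and lengths and positions are from GENCODE M21 on GRCm38 (mm10). The edgeR test was tested on simulated data. Between libraries of a group, chi-square per degree of freedom was 10.7 or more, so none was a repeat of another. The members and gene lists were chosen with earlier results of these data known, so they are not independent evidence. Any member may be named, but 3 members and 1 gene of the wider list enter the counts and are not reported singly here. Per-library values are given for members called or without overlap, and of the other lists for the 4 smallest p in each direction where useful; Pex2, Pex11a, Abcd2 and Adipoq in the second table, and Acaa1b, were added after their values were seen. Alternatives were RLE scaling, library totals, no filter, DESeq2 1.42.0, limma-voom (limma 3.58.1), a replicate block, an atrial covariate (mean log2 of CPM + 0.5 of Myl7, Myl4 and Sln), a term for Y-linked transcripts (summed CPM above 2), and the removal of each library. Removal of the libraries with atrial transcripts was added after seeing the data.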

Additional observations from a re-analysis of the deposited data

Results flagged for a closer look

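In 3 of 66 sets of values, each 1 gene in 1 group of 5 hearts, a single heart stood apart from the other 4; chance alone gives about 1 such set in 20. Ehhadh was lowest in wild type replicate 5, at 4.61 CPM, where the other wild type hearts had 5.82 to 6.23 CPM. Pex7 was lowest in CPT2H-KO replicate 1, at 6.80 CPM, where the other CPT2H-KO hearts had 9.28 to 9.50 CPM. Pex16 was highest in CPT2H-KO replicate 5, at 7.23 CPM, where the others had 6.14 to 6.42 CPM. CPT2H-KO replicate 1 also had the lowest Cpt2 of its group, at 30.4 CPM, and the smallest TMM factor, 0.807.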

How the results depend on the processing

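Of the 14 members called in CPT2H-KO hearts, 7 were called in all 19 alternatives: Pex11a, Pex2, Pex7, Abcd2, Pxmp2, Scp2 and Phyh. Scaling by library totals alone gave 1 biogenesis gene higher and 8 lower, and 0 enzyme genes higher, since that scaling moves all genes down. Under it Pex5 was at -0.25, Pex14 at -0.19, Pex10 at -0.043, Pex16 at -0.045, Pex19 at -0.17, Abcd3 at -0.16, Acox3 at -0.065, Ehhadh at -0.25, Hsd17b4 at -0.20, Eci2 at -0.20 and Agps at -0.22. The Y-linked term gave 1 biogenesis gene higher and 2 lower, beside 14.6% of all genes higher and 15.4% lower. The atrial covariate gave 2 biogenesis genes lower and 1 enzyme gene higher, beside 9.75% of all genes lower and 10.5% higher. Under it Pex3 was at 0.030 and Ehhadh at -0.034, and Gnpat had an edgeR adjusted p of 0.055. With limma-voom, Ehhadh was at -0.0096. Without the CPT2H-KO hearts with atrial transcripts, 1 enzyme gene was higher, beside 16.2% of all genes. All wild type hearts in that fit still carried atrial transcripts. There Pex6 was at 0.12, Acaa1a at 0.014, Eci2 at -0.017 and Agps at -0.034. Leaving out 1 library at a time gave 1 to 3 biogenesis genes higher, 2 to 5 lower, and 1 to 2 enzyme genes higher. In those fits 26.1% to 33.9% of all genes were called in either direction. Pex5 ranged from -0.020 to 0.039, Ehhadh from -0.068 to 0.13, Pex6 from -0.17 to 0.082 and Agps from -0.0093 to 0.070. The cause of these changes was not tested.

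Whether the labels' replicate numbers pair the hearts could not be settled from these values. Same-numbered libraries had correlations of -0.05 to 0.26 in the first table and -0.20 to 0.18 in the second. Those between other numbers were -0.22 to 0.20 and -0.29 to 0.23, so the ranges overlap. With the replicate block, 1 biogenesis gene was higher and 2 lower, and 1 enzyme gene was higher. Of all genes, 14.6% were then called higher and 15% lower, and Ehhadh was at -0.0028.

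In double against single KO hearts, 0 members were called in each of 15 alternatives, 1 of which leaves a single double KO heart, assumed to vary like the others. The atrial covariate put Ehhadh at -0.23 and Abcd2 at -0.59, and the Y-linked term put Abcd2 at -0.37. With the Y-linked term the comparison rests on single KO replicate 3, the only single KO heart with Y-linked transcripts at background. Abcd2 was at 6.60 CPM in that heart, against 1.79 and 3.37 CPM in the other single KO hearts. Without the double KO hearts with atrial transcripts, Ehhadh was at -0.16 and Abcd2 at -0.39. Genes such as Pex5l and Acaa1b, near or under 1 CPM, have too few counts for a small difference to be detectable.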
